A study of Mus musculus with 12 samples.

Results

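The 32 genes described here encode enzymes and regulators of cholesterol and fatty acid synthesis. They were chosen by gene symbol as members of 4 roles: 7 enzymes of the mevalonate steps, 12 enzymes that make squalene and then sterols, 6 genes of sterol sensing and transport, and 7 genes of fatty acid synthesis. The deposited count tables list 53656 genes, and all 32 were among the 13383 with enough reads to be tested. Messenger RNA was counted in thymocytes of mice whose Zfp148 fl/fl and Zfp281 fl/fl alleles can be deleted, and these alleles are shared by every group. Zfp148 and Zfp281 are related zinc finger proteins that bind G-rich DNA. In the double knockout (dKO) mice the Cd4-Cre transgene, which acts from the CD4 and CD8 double-positive stage of T cell development, deletes both genes. The controls carry no Cre, so an effect of Cre alone cannot be told apart from the loss of the 2 genes. Immature CD4 cells (ImCD4) were sorted as CD44low CD69+ cells that were CD4+, CD8- and H2-Kb-. Immature CD8 cells (ImCD8) were sorted as CD44low CD69+ cells that were CD8+, CD4- and TCRb+. Each of the 4 groups, control and dKO in both populations, has 3 libraries, and the sources used here give neither age nor sex.

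Animal cells build cholesterol from acetyl-CoA by way of mevalonate, squalene and lanosterol, and build saturated fatty acids from acetyl-CoA by way of malonyl-CoA. Transcription of both pathways is set largely by the sterol regulatory element-binding proteins (SREBPs), membrane-bound factors made from Srebf1 and Srebf2. The escort protein SCAP carries them to the Golgi for cleavage when sterols are low, and INSIG proteins hold them in the endoplasmic reticulum when sterols are high. Thymocytes and T cells depend on this supply of membrane lipid when they grow and divide.

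Gene counts per library ran from 7315833 to 10943143. In ImCD4 they were higher in every dKO library (9319732 to 10943143) than in any control library (8276742 to 9173424), while they overlapped in ImCD8. For the 6 ImCD8 libraries the sample title and the genotype label name opposite genotypes, and every ImCD8 direction here rests on the titles. Zfp281, the deleted gene with the larger drop, held 439.9 to 561 CPM (a gene's count as a share of the scaled library) in control ImCD4 libraries and 16.1 to 21.3 CPM in dKO ImCD4 libraries. In the ImCD8 libraries titled control Zfp281 held 112 to 128 CPM, and in those titled dKO 10.2 to 14.8 CPM, so its levels go with the titles. The third principal component, which carried 5.31% of the variance, set apart 1 library of each group, replicate 3 in every case. The 8 thymocyte markers were detected in every group, the summed CD8 lineage markers reached 4505.5 to 4784 CPM in ImCD8 against 120 to 294 CPM in ImCD4, and the CD4 lineage markers 1952 to 2376 CPM in ImCD4 against 50.8 to 93.6 CPM in ImCD8. The library set apart held the lowest sum of the other lineage's markers in each group. For CD8 markers in ImCD4 this was 120 against 239 and 241 CPM in control, and 140 against 294 and 285 CPM in dKO. For CD4 markers in ImCD8 it was 50.8 against 58.6 and 65.1 CPM in control, and 72.2 against 93.6 and 93.5 CPM in dKO. The part of this in the values below was not tested. Adipocyte and sebocyte markers, which mark tissues rich in lipid synthesis, summed to at most 1.53 CPM in any library, and 4 of the 5 had no count in each group. Bulk libraries cannot tell fewer cells with a transcript from less of it in each cell.

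Promoter windows, from 250 bases before to 50 bases after a transcription start, were taken from RefSeq on build GRCm38.p6 for the 26 members with an entry. Fdps, Fdft1, Sqle, Stard4, Scd1 and Scd2 had none. The windows of 4 SREBP regulators are shown, and those of Insig2 are left out. The window of Hmgcs1, the first committed enzyme of the mevalonate steps, is added because it was the only member window that held the sterol element core searched for, and it was chosen after that search. Srebf1 has 3 windows and Scap 2, and the first of each is shown. The other Srebf1 windows hold GC boxes, which the first lacks, and the G-rich run of Scap lies only in its second window. Capitals mark matches on either strand to the sterol element core TCACNCCAC, the CCAAT box CCAAT, the GC box GGGCGG, the E box CACGTG and the G-rich run GGGAGGGG. All are written from 5′ to 3′ on the strand of the gene: Srebf1 is at chr11:60222532-60222831 on the minus strand, Srebf2 at chr15:82147019-82147318, Scap at chr9:110333038-110333337, Insig1 at chr5:28071162-28071461 and Hmgcs1 at chr13:119690101-119690400, the last 4 on the plus strand.
Srebf1: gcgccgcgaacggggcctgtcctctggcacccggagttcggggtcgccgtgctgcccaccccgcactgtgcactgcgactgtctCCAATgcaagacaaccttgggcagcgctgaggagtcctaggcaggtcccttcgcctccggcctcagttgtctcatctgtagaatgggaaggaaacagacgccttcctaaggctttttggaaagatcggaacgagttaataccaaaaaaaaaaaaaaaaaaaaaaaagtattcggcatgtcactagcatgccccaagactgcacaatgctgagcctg
Srebf2: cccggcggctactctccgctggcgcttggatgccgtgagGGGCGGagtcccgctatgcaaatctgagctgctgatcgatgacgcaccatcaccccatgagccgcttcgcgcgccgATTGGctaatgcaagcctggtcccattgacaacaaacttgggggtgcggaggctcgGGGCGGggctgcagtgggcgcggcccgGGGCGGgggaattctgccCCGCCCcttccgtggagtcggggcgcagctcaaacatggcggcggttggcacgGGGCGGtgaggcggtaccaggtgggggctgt
Scap: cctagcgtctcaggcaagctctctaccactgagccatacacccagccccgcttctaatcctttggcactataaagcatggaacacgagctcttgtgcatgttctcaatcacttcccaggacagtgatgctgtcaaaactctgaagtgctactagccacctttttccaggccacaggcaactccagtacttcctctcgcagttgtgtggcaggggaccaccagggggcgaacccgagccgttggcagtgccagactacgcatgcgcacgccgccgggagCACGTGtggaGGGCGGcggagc
Insig1: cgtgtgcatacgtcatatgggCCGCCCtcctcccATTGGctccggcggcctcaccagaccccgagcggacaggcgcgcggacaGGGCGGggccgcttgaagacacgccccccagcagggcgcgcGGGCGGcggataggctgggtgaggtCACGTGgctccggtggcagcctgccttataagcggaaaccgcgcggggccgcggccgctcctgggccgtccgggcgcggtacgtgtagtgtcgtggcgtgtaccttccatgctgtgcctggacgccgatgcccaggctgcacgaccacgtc
Hmgcs1: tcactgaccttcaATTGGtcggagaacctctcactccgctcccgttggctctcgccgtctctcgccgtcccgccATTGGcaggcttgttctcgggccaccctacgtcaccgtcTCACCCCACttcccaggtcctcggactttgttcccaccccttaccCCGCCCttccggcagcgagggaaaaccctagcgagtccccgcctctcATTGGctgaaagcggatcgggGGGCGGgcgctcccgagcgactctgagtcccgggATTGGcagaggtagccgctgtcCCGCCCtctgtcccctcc

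The CCAAT box was present in 22 of the 26 members with a window, 84.6%, against 41.1% of the 27025 genes in the RefSeq table. The GC box was also present in 22 members, 84.6% against 38.2% of all genes. Srebf2 shows the GC box 5 times in the window printed above, and Hmgcs1 shows the CCAAT box 4 times. The E box was found for 5 members, Hsd17b7, Sc5d, Dhcr7, Scap and Insig1, 19.2% against 8.09%, and the G-rich run for 5, Lss, Scap, Insig2, Acly and Elovl6, 19.2% against 13.4%. The sterol element core was found for 1 member, 3.85% against 1.44%. The 27025 genes include many too low to be tested here, while every member was tested. Shares over the tested genes alone were not computed, so an excess cannot be assigned to this set. These are matches of letters in a fixed window, not measured binding, and the GC box and the G-rich run can share letters.

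The first comparison asks what loss of both zinc finger genes does to these transcripts in ImCD4 cells. The 5 members called higher were Fasn, which encodes fatty acid synthase, Acaca, the acetyl-CoA carboxylase that makes its malonyl-CoA, the sterol reductase genes Lbr and Tm7sf2, and the sterol sensor gene Insig1. They rose by 1.26-fold to 1.46-fold. No member was called lower, and 27 were not called. That is 5 of 32 members, where 13.4% of all tested genes were called, 7.26% higher and 6.16% lower (edgeR quasi-likelihood test, adjusted p under 0.05). At an unadjusted p under 0.05 there were 11 higher and 1 lower, where 14.8% and 12.5% of all genes were. DESeq2 called 4 higher and 0 lower, and limma-voom 6 higher and 0 lower. Estimates were positive for 25 members and negative for 7, with a median log2 fold change of 0.18 against 0.02 over all tested genes. The libraries of control and dKO did not overlap for 9 members on the higher side, against 18.2% of all genes, and for Acly alone on the lower side, against 15.7%.

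**Figure D1:**
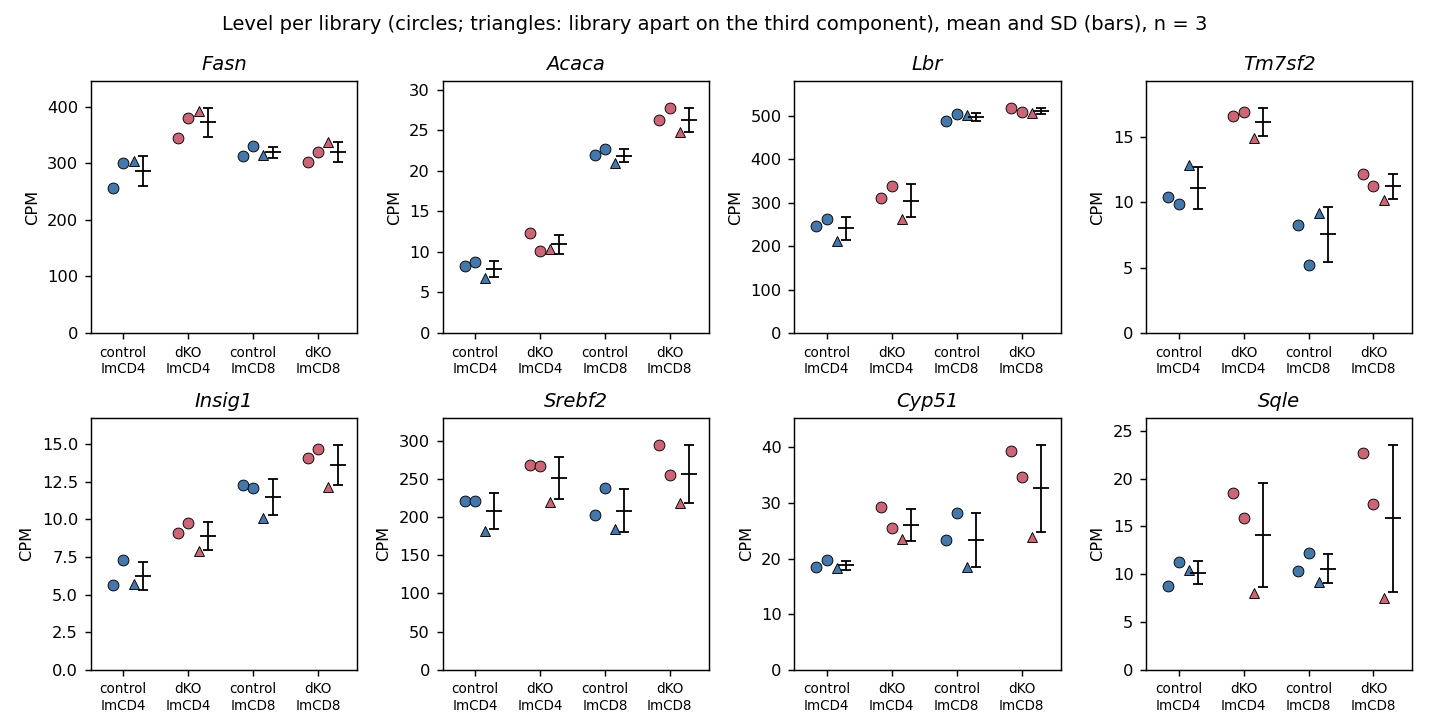
CPM (y axis, linear from 0) of 8 members in each library of the 4 groups; symbols are libraries, triangles the library of each group set apart on the third component, and bars the mean and SD. Fasn is higher in all 3 dKO ImCD4 libraries than in any control ImCD4 library, while in both dKO groups the triangle of Sqle lies below every control library.

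The lowest adjusted p among these calls was that of Fasn. It (chromosome 11, 120805846 to 120824547, minus strand) held 256, 301 and 304 CPM in the control ImCD4 libraries and 344, 379.9 and 393 CPM in the dKO libraries. Every dKO library lay above every control library. The log2 fold change was 0.38 ± 0.08 (SE), with edgeR adjusted p = 0.00464. Acaca (chromosome 11, 84129672 to 84401651, plus strand) held 8.22, 8.71 and 6.77 CPM in control and 12.3, 10.1 and 10.4 CPM in dKO, again without overlap. Its change was 0.47 ± 0.14 with adjusted p = 0.0342, on 64 to 138 counts per library. Acaca is read with a limit, since 30.4% of its 50-base stretches also occur in another annotated gene, chiefly Gm5182, whereas Fasn shares none.

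The other 5 genes of fatty acid synthesis were not called. Acly, ATP citrate lyase, which makes cytosolic acetyl-CoA from citrate, held 501, 417 and 417 CPM in control and 375, 404 and 386 CPM in dKO. All dKO libraries lay below all control libraries, and the estimate was -0.20 ± 0.08 (adjusted p = 0.111). Acss2, which makes acetyl-CoA from acetate, had an estimate of -0.18 ± 0.12, the elongase gene Elovl6 of -0.35 ± 0.24 and the desaturase gene Scd2 of -0.18 ± 0.12. Scd1, the second desaturase, was near the detection limit at 10 to 25 counts per ImCD4 library, with an estimate of 0.24 ± 0.38.

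Among the sterol enzymes 2 of 12 rose. Tm7sf2, a sterol C14 reductase (chromosome 19, 6062821 to 6068373, minus strand), held 10.5, 9.92 and 12.9 CPM in control and 16.6, 16.9 and 14.9 CPM in dKO. The groups did not overlap, and the change was 0.54 ± 0.17 with adjusted p = 0.0493. Lbr, the lamin B receptor, has the same reductase activity besides its role at the nuclear envelope (chromosome 1, 181815335 to 181843046, minus strand). It held 246, 263 and 213 CPM in control and 311, 339 and 263 CPM in dKO, so that the lowest dKO library was level with the highest control library. Its change was 0.34 ± 0.09 with adjusted p = 0.0215. Exons of Tm7sf2 overlap those of Vps51 on the same strand over 12.1% of their length, and those of Lbr overlap Dnah14 on the opposite strand over 9.24%.

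The remaining 10 sterol enzymes were not called. Cyp51, the lanosterol demethylase, held 18.4, 19.7 and 18.3 CPM in control and 29.2, 25.5 and 23.6 CPM in dKO, without overlap, for an estimate of 0.47 ± 0.17 (adjusted p = 0.0894). Dhcr7, which catalyses the last step to cholesterol, held 131, 138 and 105 CPM in control and 162, 139 and 169.5 CPM in dKO, an estimate of 0.33 ± 0.13 (adjusted p = 0.107). Sqle, squalene epoxidase, spread most: control libraries held 8.81, 11.2 and 10.5 CPM, and the dKO libraries 18.5, 15.9 and 8.01 CPM. In 2 dKO libraries Sqle was above all controls and in the one set apart it was below them, and the estimate of 0.48 ± 0.37 had adjusted p = 0.441. For Fdft1, Lss, Msmo1, Nsdhl, Hsd17b7, Ebp and Sc5d the estimates ran from -0.13 to 0.15.

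None of the 7 mevalonate genes was called in ImCD4, and 6 of their estimates were positive. Only the libraries of Pmvk, phosphomevalonate kinase, did not overlap among these 7: control libraries had at most 13.8 CPM and dKO libraries at least 13.9 CPM, with an estimate of 0.31 ± 0.17. Hmgcs1, HMG-CoA synthase, averaged 27.6 ± 1.78 CPM in the controls against 26.8 ± 5.87 CPM in dKO (SD, n = 3). Idi1, the isopentenyl diphosphate isomerase gene, had an estimate of 0.31 ± 0.24. Acat2, Mvk, Mvd and Fdps lay between 0.08 and 0.21. Fdps had 0.844 to 3.74 CPM over all 12 libraries, and 26.2% of its 50-base stretches recur in another gene.

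The SREBP regulators all had positive estimates in ImCD4, and 1 was called. Insig1 (chromosome 5, 28071363 to 28078662, plus strand) held 5.64, 7.28 and 5.71 CPM in control and 9.08, 9.75 and 7.90 CPM in dKO, without overlap, on 48 to 102 counts per library. Its change was 0.52 ± 0.17 with adjusted p = 0.0494. Insig2, which encodes the second sterol sensor, held 46.5, 47.3 and 46.8 CPM in control and 55.8, 53.4 and 52.8 CPM in dKO. It also did not overlap, with an estimate of 0.20 ± 0.08 (adjusted p = 0.124). Scap, the escort, held 91.0, 97.6 and 96.7 CPM in control and 105, 107 and 121 CPM in dKO, an estimate of 0.22 ± 0.08 (adjusted p = 0.0847), likewise without overlap.

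The factor genes themselves overlapped between the genotypes. Srebf1, the factor linked mainly to fatty acid genes, held 175, 215 and 155 CPM in control and 237, 269 and 191 CPM in dKO, with an estimate of 0.35 ± 0.14 (adjusted p = 0.126). Srebf2, linked mainly to sterol genes, held 221, 222 and 181 CPM in control and 268, 266 and 219.6 CPM in dKO, with an estimate of 0.27 ± 0.13 (adjusted p = 0.177). In both genes the library set apart was the lowest of its group. Stard4, a soluble sterol carrier, had an estimate of -0.10 ± 0.18.

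Single libraries moved most of the ImCD4 calls. Fasn was called under all 22 alternative settings, with adjusted p between 9.74e-05 and 0.033. The count of 5 fell to 1 without control ImCD4 replicate 1 and without dKO ImCD4 replicate 1, and to 2 without control ImCD4 replicate 3 and without dKO ImCD4 replicate 2. It was 3 without replicate 1 of control ImCD8 or of dKO ImCD8. Acaca lost its call without control ImCD4 replicate 1 or 3 or dKO ImCD4 replicate 1 (adjusted p up to 0.136). Lbr lost it without any of those 3 or dKO ImCD4 replicate 2 (up to 0.118). Insig1 and Tm7sf2, both close to the threshold, lost theirs under 15 and 11 of the 22 settings. For Insig1 these included leaving out replicate 1 or 3 of control ImCD4, 1 or 2 of dKO ImCD4, any of control ImCD8 or 1 of dKO ImCD8 (adjusted p up to 0.169). For Tm7sf2 they included leaving out replicate 1 or 2 of control ImCD4, any of dKO ImCD4, 1 of control ImCD8, or 1 or 2 of dKO ImCD8 (up to 0.165). Some uncalled members gained a call in ImCD4. Cyp51 did under 6 of the 22 settings, including limma-voom and without dKO ImCD8 replicate 3. Srebf1 did under 5, including without control ImCD4 replicate 2 or dKO ImCD4 replicate 3. Srebf2 gained one under 2, and Dhcr7, Scap and Sqle under 1 each. The settings added after the data were seen are among these. In ImCD4 the summed cell cycle markers also separated the genotypes, with 314 to 326 CPM in control against 384 to 416 CPM in dKO, and with Mcm2 and Mcm5 called higher among 8. The mitochondrial share of counts separated them too, from 1.07% to 1.31% for control against 0.633% to 0.961% for dKO, as did reads outside genes, 13.6% to 16.4% against 10.5% to 12.9%. The part of these measures, the markers and the depth difference in the values above was not tested.

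In ImCD8 no member was called in either direction, where edgeR called 6.14% of all tested genes, 2.62% higher and 3.53% lower. At an unadjusted p under 0.05 there were 5 higher and 1 lower, where 9.39% and 9.44% of all genes were. DESeq2 called 1 member higher, Acss2 (adjusted p = 0.0485), and 0 lower, and limma-voom called 0 in both directions. Without the filter on low counts 3 were called higher, Acss2, Cyp51 and Srebf2. The count was 1 without replicate 3 of control ImCD4 or of dKO ImCD4 (Acss2 in both) and without replicate 3 of dKO ImCD8 (Cyp51). Estimates were positive for 26 members and negative for 6, with a median of 0.13 against 0.01 over all genes. Without dKO ImCD8 replicate 1 the median was 0.06, with 22 positive. Libraries did not overlap for 4 members on the higher side, Acaca, Acss2, Lbr and Tm7sf2, against 10.3% of all genes. Acly and Elovl6 were the 2 on the lower side, against 11.5%.

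The genes called in ImCD4 had these values in ImCD8. Fasn held 314, 331 and 315 CPM in control and 303, 319.6 and 338 CPM in dKO, fully overlapping, for an estimate of 0.00 ± 0.08 (adjusted p = 0.997). Lbr held 487, 504 and 502 CPM in control and 518, 508 and 506 CPM in dKO, an estimate of 0.04 ± 0.09 (adjusted p = 0.887). Acaca held 21.9, 22.6 and 21.0 CPM in control and 26.2, 27.7 and 24.7 CPM in dKO, separated, with an estimate of 0.27 ± 0.12 (adjusted p = 0.243). Tm7sf2 held 8.27, 5.20 and 9.23 CPM in control and 12.2, 11.3 and 10.2 CPM in dKO, also separated, with an estimate of 0.55 ± 0.19 (adjusted p = 0.103) as large as in ImCD4. Its ImCD8 counts were 37 to 123 per library. Insig1 overlapped, at 12.3, 12.1 and 10.1 CPM in control and 14.1, 14.7 and 12.1 CPM in dKO, with an estimate of 0.25 ± 0.15 (adjusted p = 0.423).

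The other SREBP regulators also overlapped in ImCD8. Srebf1 held 213, 235 and 208 CPM in control and 263, 293 and 221 CPM in dKO (0.25 ± 0.14, adjusted p = 0.392). Srebf2 held 203, 239 and 184 CPM in control and 295, 255 and 219 CPM in dKO (0.30 ± 0.13, adjusted p = 0.211). Each had its lowest value of the group in the library set apart. Scap held 92.0, 91.0 and 108 CPM in control and 106, 104 and 113 CPM in dKO (0.15 ± 0.08, adjusted p = 0.354). Insig2 held 34.0, 35.2 and 37.1 CPM in control and 43.1, 35.3 and 38.4 CPM in dKO (0.13 ± 0.09, adjusted p = 0.471).

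The enzymes that supply acetyl-CoA gave separated values of opposite sign in ImCD8. Acss2 held 74.1, 75.8 and 78.2 CPM in control and 90.4, 96.7 and 104 CPM in dKO, an estimate of 0.35 ± 0.11 (adjusted p = 0.0729). Acly held 434, 392 and 394 CPM in control and 344, 358 and 340.1 CPM in dKO, an estimate of -0.23 ± 0.08 (adjusted p = 0.105). All dKO libraries were thus above control for Acss2 and below it for Acly. Within a library the count of Acss2 was 18.8 ± 1.47% of that of Acly in control ImCD8 and 28.0 ± 2.34% in dKO ImCD8. In ImCD4 it was 10.4 ± 1.55% in control and 10.5 ± 1.13% in dKO. Because the genes separated in opposite directions in ImCD8, their ratio had to separate there too and adds no evidence. Such a share compares counts of transcripts of unequal length and serves only to compare libraries. Elovl6 held 17.2, 18.8 and 18.8 CPM in control and 12.3, 16.4 and 14.2 CPM in dKO ImCD8, an estimate of -0.35 ± 0.22 (adjusted p = 0.44).

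**Figure D2:**
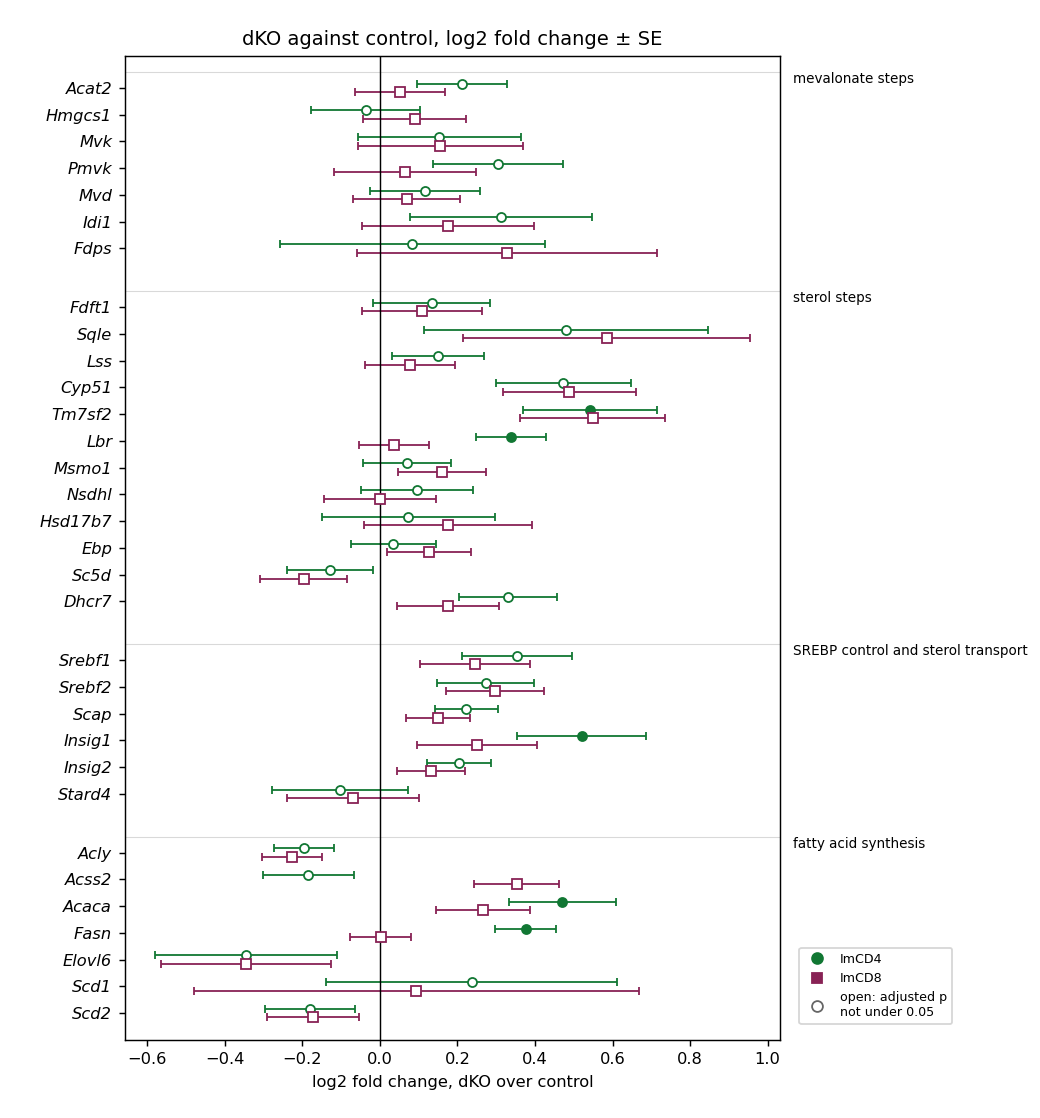
Log2 fold change of dKO over control (x axis) with its SE for each of the 32 members, by role, in ImCD4 (green circles) and ImCD8 (purple squares); filled symbols passed the adjusted p threshold of 0.05. The 5 filled symbols are all ImCD4 values to the right of 0, and 24 members lie to the right of 0 in both populations.

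The 2 genotype comparisons share no library and are set side by side. The titles do not show whether the populations share animals. Members also share regulators, so the counts of members below are not counts of independent agreements. Both estimates were positive for 24 of 32 members, 75%, against 35% of all tested genes, and both were negative for 5, Sc5d, Stard4, Acly, Elovl6 and Scd2. Acss2, Hmgcs1 and Nsdhl had estimates of opposite sign. The genes that passed in ImCD4 were not shown to respond differently in ImCD8: when the difference of the 2 effects was tested, 0 members were called in either direction, where 0.433% of all genes were. At an unadjusted p under 0.05 the difference counted 1 member higher in ImCD8, Acss2, and 2 lower, Fasn and Lbr, where 4.24% and 5.75% of all genes were. DESeq2 and limma-voom also called 0. Acss2 differed by 0.54 ± 0.16 (adjusted p = 0.217) and Fasn by -0.37 ± 0.11 (adjusted p = 0.216), the largest differences in each direction. Without control ImCD4 replicate 3 the difference of Acss2 was called, as the only member, and no other single library changed that count.

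The library set apart in each group was low for many of these genes. In all 4 groups replicate 3 held the lowest value for 7 members, the mevalonate genes Hmgcs1, Mvk and Pmvk, the demethylase gene Cyp51, the desaturase gene Scd2 and both factor genes, Srebf1 and Srebf2. This is 21.9% of the members against 8.11% of all tested genes. It was the lowest in at least 3 groups for 15 members, 46.9% against 21.7%, and the highest in at least 3 groups for 3, Ebp, Fasn and Scap, 9.38% against 19.3%. The median difference on the log2 scale from the other 2 libraries of the group was -0.16 over members and -0.00 over all genes. The component was computed from all genes, these included, so that the shares describe it and carry no test.

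**Figure D3:**
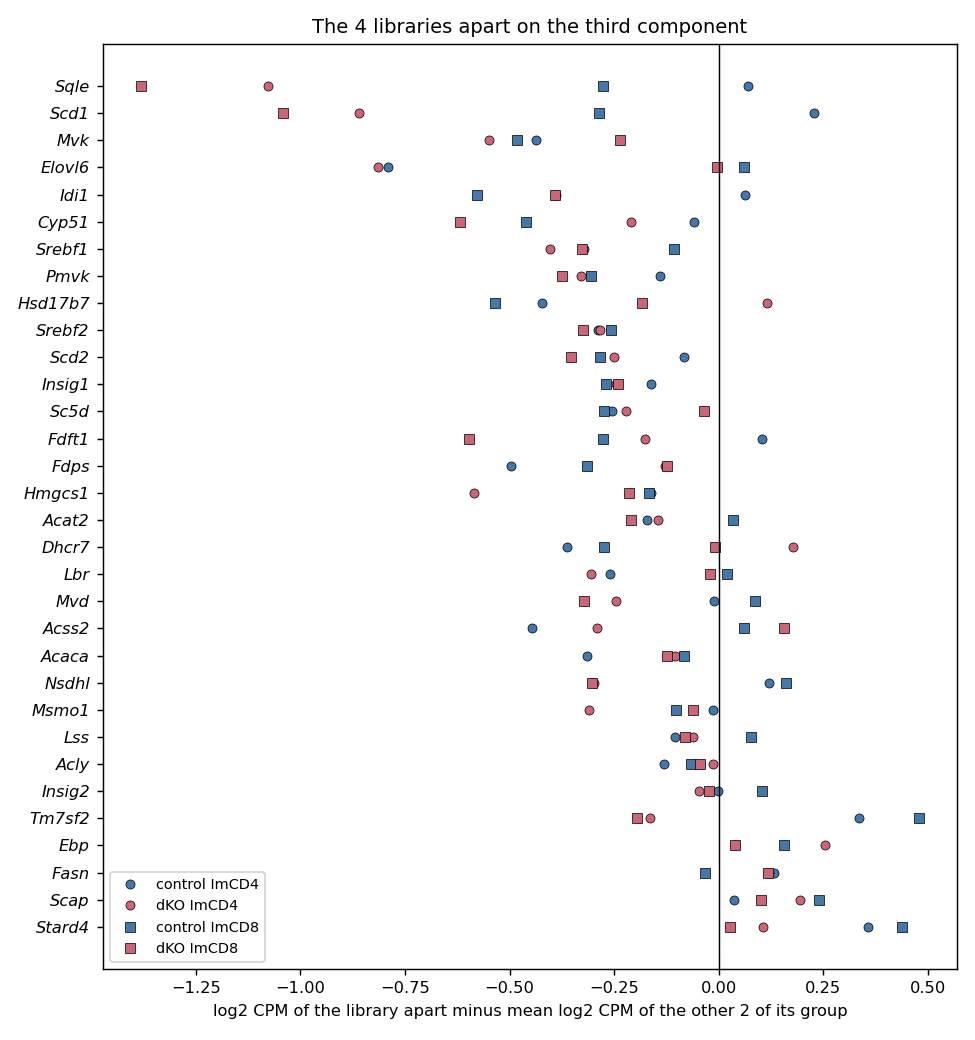
Log2 CPM of the library set apart minus the mean log2 CPM of the other 2 libraries of its group (x axis) for the 32 members; circles are ImCD4, squares ImCD8, blue control and red dKO. Most symbols lie left of 0, and the widest spread is that of Sqle, from -1.38 in dKO ImCD8 to 0.07 in control ImCD4.

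Sqle had the widest such spread, with differences of 0.07 in control ImCD4, -1.08 in dKO ImCD4, -0.28 in control ImCD8 and -1.38 in dKO ImCD8. Its ImCD8 levels were 10.3, 12.2 and 9.23 CPM in control and 22.7, 17.4 and 7.49 CPM in dKO. As in ImCD4, the dKO library set apart lay below every control library and the other 2 lay above. Without these 4 libraries, a choice made after the data were seen, Sqle passed in both populations, at 0.77 ± 0.19 in ImCD4 (adjusted p = 0.01) and 0.83 ± 0.19 in ImCD8 (adjusted p = 0.00967). Cyp51 did so too, at 0.52 ± 0.14 (adjusted p = 0.0178) and 0.52 ± 0.13 (adjusted p = 0.021), against ImCD8 levels of 23.4, 28.1 and 18.6 CPM in control and 39.3, 34.6 and 23.9 CPM in dKO with all libraries. The members called without the 4 were 6 in ImCD4, Cyp51, Fasn, Lbr, Sqle, Srebf1 and Tm7sf2, and 4 in ImCD8, Acss2, Cyp51, Sqle and Tm7sf2, all higher. Among all genes 6.91% and 3.03% were called higher in that fit. It keeps 2 libraries per group and leaves out the dKO libraries in which Sqle was low, picked from the same counts. Its adjusted p-values and calls therefore describe that choice and are not an independent test. The calls of Acaca (adjusted p = 0.131) and Insig1 (adjusted p = 0.0781) were lost. With a model term for the 4 libraries 9 members were called higher in ImCD4, and in ImCD8 3 were higher and 1, Acly, was lower. Among all genes the share called higher was then 11.1% in ImCD4, and in ImCD8 4.92% were higher and 5.69% lower.

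More members were called between the populations than between the genotypes. In controls 9 members were higher and 6 lower in ImCD8 than in ImCD4, where 45.3% of all tested genes were called, 23.1% higher and 22.1% lower. In dKO 8 were higher and 7 lower, where 43.7% of all genes were called, 22.1% higher and 21.6% lower. With 15 of 32 called in each genotype the members' share is near the background, and the medians of 0.14 and 0.12 lay next to -0.01 and -0.00 over all genes. The dKO median was -0.0043 without dKO ImCD8 replicate 1, 0.03 without dKO ImCD4 replicate 3, 0.05 without dKO ImCD8 replicate 2, 0.18 without dKO ImCD8 replicate 3 and 0.04 with limma-voom. With scaling by library size only the medians were 0.07 and 0.06 against -0.08 and -0.06 over all genes. In the controls the libraries did not overlap for 10 members on the higher side, against 28.8%, and for 6 on the lower side, against 27.6%. In dKO these were 9 against 25.6% and 8 against 26.2%. Higher in both genotypes were 7 members, Acaca, Acss2, Hmgcs1, Elovl6, Lbr, Insig1 and Mvd, and lower in both were 6, Scd1, Scd2, Dhcr7, Tm7sf2, Pmvk and Insig2. These genes sit in every role, and members of the same role went both ways.

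**Figure D4:**
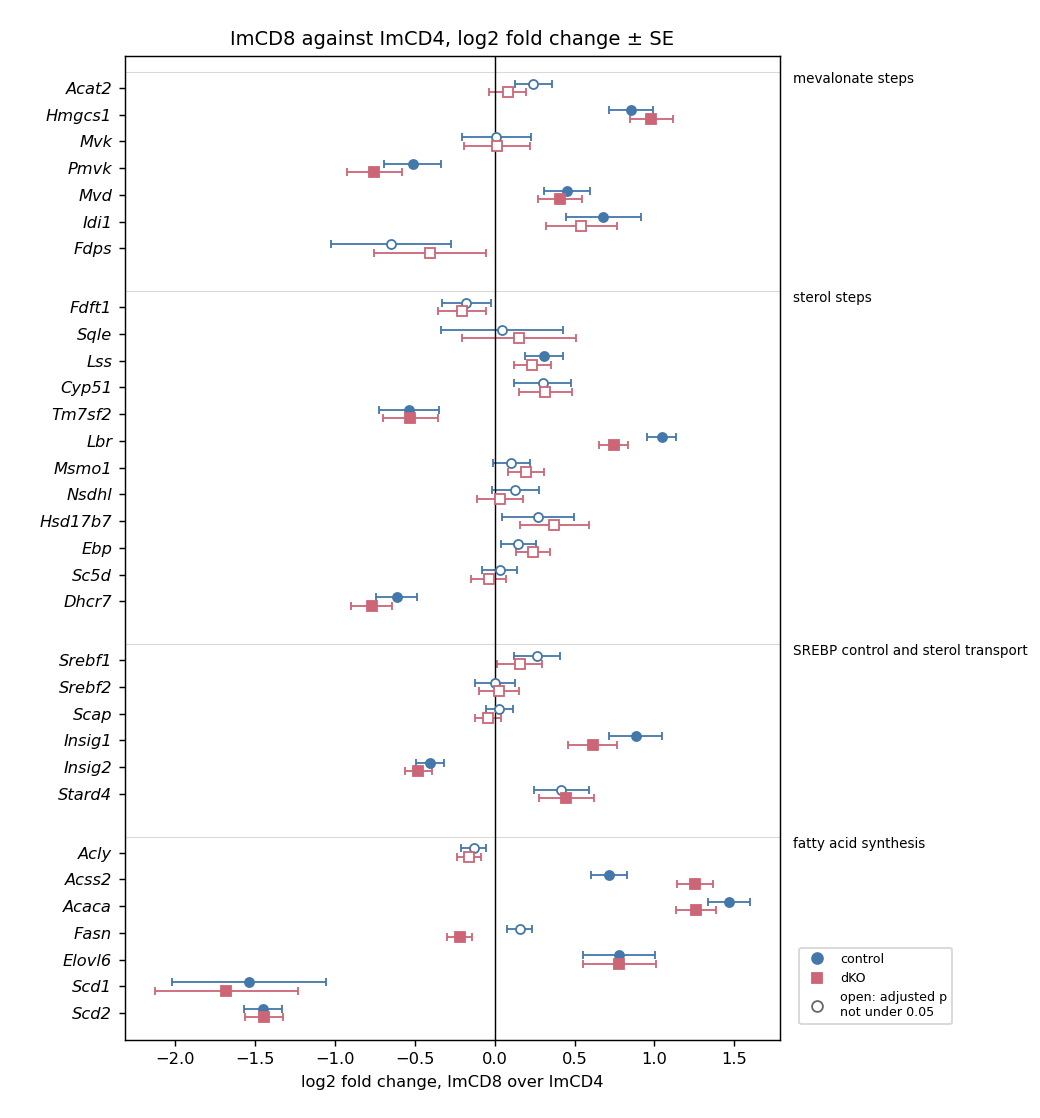
Log2 fold change of ImCD8 over ImCD4 (x axis) with its SE for each member, by role, in control (blue circles) and dKO (red squares); filled symbols passed the adjusted p threshold of 0.05. Acaca lies farthest to the right at 1.47 in control and 1.26 in dKO, and Scd1 and Scd2 farthest to the left.

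The 3 largest rises in controls were those of Acaca, Lbr and Insig1. Acaca, with the library values given above, rose by 1.47 ± 0.13 on the log2 scale (adjusted p = 2.5e-07), from 7.90 ± 1.01 to 21.9 ± 0.816 CPM (SD, n = 3), and every ImCD8 library lay above every ImCD4 library. Lbr rose by 1.05 ± 0.09 (adjusted p = 1.52e-07), from 241 ± 25.8 to 498 ± 9.25 CPM, also without overlap. Insig1 rose by 0.88 ± 0.17 (adjusted p = 0.000431), from 6.21 ± 0.926 to 11.5 ± 1.23 CPM. In dKO the 3 largest rises were those of Acaca at 1.26 ± 0.13, Acss2 at 1.25 ± 0.11 (adjusted p = 2.78e-07) and Hmgcs1 at 0.98 ± 0.14 (adjusted p = 2.95e-05). Acss2 held 51.6, 50.1 and 37.2 CPM in control and 41.6, 45.0 and 35.3 CPM in dKO ImCD4, below all of the ImCD8 libraries listed above. Hmgcs1 held 28.4, 28.9 and 25.6 CPM in control and 30.5, 29.9 and 20.1 CPM in dKO ImCD4. In ImCD8 it held 48.2, 55.8 and 46.2 CPM in control and 53.3, 58.1 and 47.9 CPM in dKO, so that each ImCD8 library was above each ImCD4 library.

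The 2 stearoyl-CoA desaturase genes, which lie in the same region of chromosome 19, had the largest falls in both genotypes. Scd2 (44293674 to 44306864, plus strand) held 836, 886 and 813 CPM in control and 754, 822 and 662 CPM in dKO ImCD4. In ImCD8 it held 301, 358 and 270.0 CPM in control and 280.0, 312 and 231 CPM in dKO. The populations were far apart, with log2 fold changes of -1.45 ± 0.12 in control (adjusted p = 1.79e-07) and -1.44 ± 0.12 in dKO (adjusted p = 2.07e-07). Scd1 (44394455 to 44407879, minus strand) changed by -1.54 ± 0.48 in control (adjusted p = 0.016) and -1.68 ± 0.45 in dKO (adjusted p = 0.00626). It did so on few reads, at 11, 14 and 16 counts in control and 25, 21 and 10 in dKO ImCD4, and 4, 5 and 4 in control and 8, 5 and 2 in dKO ImCD8. Scd1 and Scd2 share 4.56% and 3.97% of their 50-base stretches with each other or another gene. Without control ImCD8 replicate 1 or 3 the control call of Scd1 was lost (adjusted p up to 0.06).

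Among called members Dhcr7 had the next largest fall in both genotypes, at -0.61 ± 0.13 in control (adjusted p = 0.00159) and -0.77 ± 0.13 in dKO (adjusted p = 0.000256). In ImCD8 it held 83.6, 89.4 and 71.5 CPM in control and 107, 78.3 and 91.0 CPM in dKO, below every ImCD4 library of the same genotype. Pmvk followed in dKO, at -0.75 ± 0.17 (adjusted p = 0.00218). Other enzymes of the same steps went the opposite way: Mvd, mevalonate diphosphate decarboxylase, was higher by 0.45 ± 0.14 in control and 0.41 ± 0.14 in dKO. The remaining calls were Idi1 at 0.68 ± 0.23 and Lss at 0.31 ± 0.12, both in control, and Stard4 at 0.45 ± 0.17 and Fasn at -0.22 ± 0.08, both in dKO. Idi1 lost its call without control ImCD4 replicate 1, 2 or 3 or control ImCD8 replicate 1 or 2 (adjusted p up to 0.104). The calls of Lss, Stard4 and Fasn were lost under 13, 11 and 6 of the 22 settings. For Lss these included leaving out replicate 1 or 3 of control ImCD4, 1 or 2 of dKO ImCD4, 1 or 3 of control ImCD8 or 2 of dKO ImCD8 (adjusted p up to 0.144). For Stard4 they included replicate 1 of control ImCD4, any of dKO ImCD4, 2 of control ImCD8, or 1 or 3 of dKO ImCD8 (up to 0.158). For Fasn they included replicate 2 or 3 of dKO ImCD4 or 1 of dKO ImCD8 (up to 0.118). Mvd lost its control call without replicate 1 of ImCD4 or 2 of ImCD8 (up to 0.0725) and its dKO call without replicate 2 or 3 of ImCD4 or 1 or 2 of ImCD8 (up to 0.104). Pmvk lost its control call without replicate 1 or 2 of ImCD4 or 1 or 3 of ImCD8 (up to 0.119). Tm7sf2 lost its control call without replicate 3 of ImCD4 or 2 of ImCD8 (up to 0.13) and its dKO call without replicate 1 or 2 of ImCD4 or 3 of ImCD8 (up to 0.0687). Elovl6 lost its dKO call without replicate 2 of ImCD8 (0.0624). All 8 cell cycle markers were called higher in ImCD8 in both genotypes, and their summed level was 781 to 979 CPM for control and 737 to 855 CPM for dKO in ImCD8. Summed B cell markers were 309 to 496 CPM in ImCD8 against 63.7 to 94.5 CPM in ImCD4, with Ms4a1 under 1 CPM in every group. The part of either in the population differences was not tested, and the gates differ in H2-Kb and TCRb besides lineage.

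**Figure D5:**
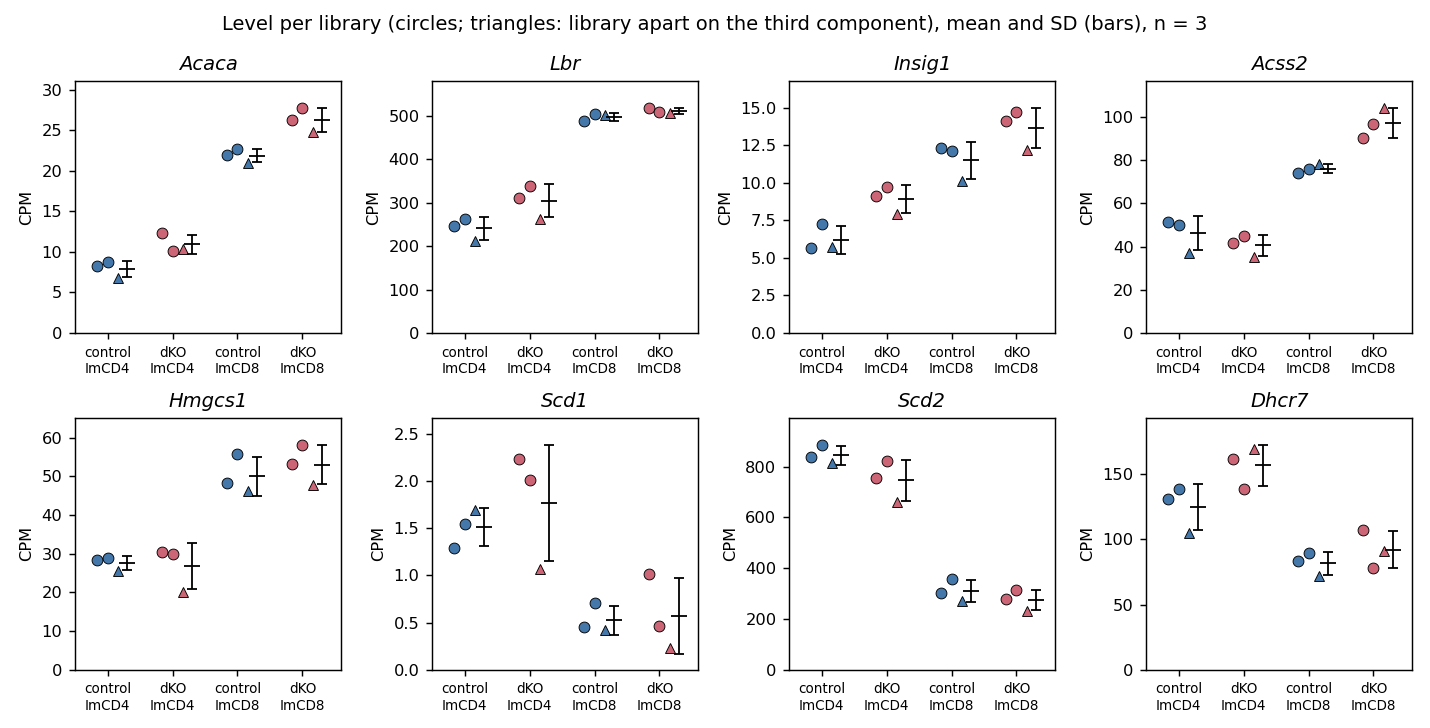
CPM (y axis, linear from 0) of 8 members with large differences between the populations, per library, with the mean and SD; blue is control, red is dKO and triangles are the libraries set apart on the third component. The ImCD8 libraries of Acaca, Lbr and Hmgcs1 all lie above the ImCD4 libraries, and those of Scd2 all below, at 231 to 358 CPM against 662 to 886 CPM.

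The count ratio differed between the populations for the pairs Tm7sf2 and Lbr, and Insig1 and Insig2. The genes of each pair were called in opposite directions between the populations, so their ratios restate those calls. The desaturase genes Scd1 and Scd2 were both lower in ImCD8, and their ratio was not computed. Tm7sf2 and Lbr encode sterol C14 reductases, and the count of Tm7sf2 was 4.69 ± 1.21% of that of Lbr in control ImCD4 and 1.52 ± 0.431% in control ImCD8 (SD, n = 3). In dKO these were 5.34 ± 0.347% and 2.20 ± 0.167%. The lowest ImCD4 library stood at 3.77% and the highest ImCD8 library at 2.35%, so the populations did not overlap. For the sensors, the count of Insig1 was 13.2 ± 1.86% of that of Insig2 in control ImCD4 and 32.6 ± 4.79% in control ImCD8. In dKO it was 16.5 ± 1.66% and 35.3 ± 5.52%. The ImCD4 libraries ranged from 12.1% to 18.2% and the ImCD8 libraries from 27.1% to 41.7%, again without overlap.

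Levels per kilobase of exon, which allow genes to be compared, placed Scd2 first in control ImCD4 at 154.7 CPM per kb, then Acly at 84.3, Lbr at 50.6, Srebf1 at 32.3, Srebf2 at 29.0 and Fasn at 26.2. The lowest were Scd1 at 0.309, Acaca at 0.463 and Fdps at 0.655 CPM per kb. In control ImCD8 Lbr was first at 104.5, then Acly at 77.0 and Scd2 at 56.7 CPM per kb. The carboxylase gene Acaca and the synthase gene Fasn stood at 1.28 and 29.2 CPM per kb there. The exon length is that of all annotated exons of a gene together, and genes with long alternative exons come out low on this scale. Reads from stretches that recur in another gene may go uncounted. The largest shares of such stretches were 39.1% for Acat2, 30.4% for Acaca, 26.5% for Fdft1, 26.2% for Fdps and 25.3% for Idi1. Their part in these levels and in the estimates above was not tested.

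Related genes outside the 32 were taken from 5 further lists, with the same background shares as above. Of 18 tested genes of other synthesis steps and desaturation 1 was higher and 1 lower in ImCD4 dKO. The lower one was Elovl7, an elongase gene, at -2.32 ± 0.42 (adjusted p = 0.00165), at 3.41, 3.53 and 4.34 CPM in control and 0.534, 1.05 and 0.640 CPM in dKO. In ImCD8 dKO 1 of the 18 was higher, Acacb, the carboxylase of the mitochondrial surface, by 1.13 ± 0.24 (adjusted p = 0.00828), from 4.21 ± 0.737 to 9.29 ± 2.67 CPM, and 0 were lower.

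Of 13 tested genes of sterol uptake and trafficking 1 was higher and 2 lower in ImCD4 dKO. Scarb1, the receptor for high-density lipoprotein, rose by 0.94 ± 0.14 (adjusted p = 0.000342), from 6.86 ± 0.652 to 13.2 ± 0.762 CPM. Gramd1b, which moves cholesterol from the plasma membrane to the endoplasmic reticulum, changed by -0.99 ± 0.14 (adjusted p = 0.000375), from 58.3 ± 15.0 to 29.3 ± 1.21 CPM. The lysosomal sterol carrier gene Npc2 changed by -0.40 ± 0.11 (adjusted p = 0.0213). In ImCD8 dKO Gramd1b was again lower, at -0.61 ± 0.14 (adjusted p = 0.0188), as the only call among these 13.

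Among 10 tested genes of LXR signalling and sterol efflux, Rxra, the nuclear receptor that pairs with LXR, rose in ImCD4 dKO by 1.26 ± 0.17 (adjusted p = 0.000121), from 3.85 ± 0.394 to 9.24 ± 1.25 CPM, and 0 fell. Of 11 genes of esterification and storage 1 rose, the phosphatidate phosphatase gene Lpin1, by 0.31 ± 0.09 (adjusted p = 0.0291). Of 16 genes of fatty acid oxidation 3 rose, Eci1 by 0.53 ± 0.14 (adjusted p = 0.0173) and the 2 subunits of the trifunctional protein, Hadhb by 0.34 ± 0.09 (adjusted p = 0.0228) and Hadha by 0.20 ± 0.06 (adjusted p = 0.0449). No gene of these 3 lists was called in ImCD8 dKO by edgeR. In ImCD8 the medians were 0.14, 0.01 and -0.05.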

How the data were processed

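The mm10 genome and the tools cutadapt 1.18, STAR 2.6.1 and HTSeq are named in the submitters' processing notes, without their roles. RNA was extracted with the RNeasy Plus Micro kit and libraries made with the SMARTer low-input kit, per the labels' protocols. Gene annotation and strand setting: not given in the sources used here; overlapping genes on opposite strands were therefore read as uncertain. The authors deposited raw counts per gene symbol without normalization. The 5 summary lines were left out of library sizes and tests: 10.5% to 16.4% of reads lay outside genes, 5.37% to 5.82% were ambiguous and 3.87% to 5.39% had several alignments.

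All 12 libraries entered 1 edgeR 4.0.16 quasi-likelihood model (R 4.3.3) with TMM scaling, filterByExpr (minimum count 10, minimum total 15), 4 group means and 8 residual degrees of freedom. Two-sided p-values were adjusted by Benjamini-Hochberg over 13383 genes, with a threshold of 0.05, and CPM values use the TMM-scaled library size. Alternatives were RLE scaling, library size only, no filter, over 5 CPM in 3 libraries, a fit that is not robust, DESeq2 1.42.0, limma-voom (limma 3.58.1), a fit of the 6 libraries of a comparison, and leaving out each library. Leaving out the 4 libraries apart on the third component, or giving them a model term, was added after the data were seen. The fit was tested on simulated data.

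The members and lists were chosen with earlier results of these data known. Members called in a genotype comparison, the SREBP regulators and the 3 largest called changes each way between populations are given with every library's value; other lists give up to 4 called genes, and some genes that this rule takes are left out. Coordinates and exon lengths come from GENCODE M21 (mm10), promoter windows from RefSeq (GRCm38.p6), and shared sequence was counted over stretches of 50 bases. Groups follow the titles, and replicate numbers only name libraries. All pairs within a group differed by more than counting noise (chi-square over degrees of freedom 3.84 or more). The labels do not say whether a group's libraries are separate animals; p-values then measure only the spread between these samples, which may be technical.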

Additional observations from a re-analysis of the deposited data

Results flagged for a closer look

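The fall of Zfp281, 1 of the 2 deleted genes, differed between the populations. Its log2 fold change in dKO was -4.71 in ImCD4 and -3.22 in ImCD8, a difference of 1.49 (edgeR adjusted p = 0.0017). Control libraries held more of it in ImCD4 (485 ± 65.5 CPM) than in ImCD8 (119 ± 7.90 CPM), and dKO libraries 18.6 ± 2.61 and 12.8 ± 2.36 CPM (SD, n = 3). No member of the cholesterol and fatty acid set was called in the same test of the difference of the dKO effects, which does not show equal effects.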

How the results depend on the processing

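The count of 5 members higher in ImCD4 dKO was 2 with library size only, 3 with the filter of over 5 CPM in 3 libraries (30 members tested), 3 with only the 6 libraries compared and 9 with a term for the 4 libraries apart, and ran from 1 to 6 when single libraries were left out. The count of 0 higher in ImCD8 dKO was 1 with DESeq2, 3 without the filter, 1 with only the 6 libraries compared, 4 without the 4 libraries apart and 3 with a term for them, and 0 to 1 when single libraries were left out. The count of 0 lower in ImCD8 dKO was 1 with that term. The count of 0 members with a more positive effect in ImCD8 was 1 without the filter and 0 to 1 when single libraries were left out. The cause was not tested. Counts between populations stayed within 1.5 times under all 22 settings, and none of the 56 single-gene log2 fold changes recomputed under them turned its sign. These cover the calls and the separated or regulator genes and not every estimate printed. The median of the members between the populations in dKO went from 0.12 to -0.0043 without dKO ImCD8 replicate 1. No paired analysis was run, because the titles number the libraries from 1 to 12 and share no replicate number. The term for the 4 libraries apart was taken from the counts and is not a known pairing. With 3 libraries per group and 8 residual degrees of freedom, changes of the size of most estimates here (SE 0.08 to 0.37, and more for Scd1 and Fdps) lie near the limit of detection, and Scd1, Fdps, Insig1 and Acaca rest on few reads.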
